A study of Mus musculus with 18 samples.

Results

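Histone H3 lysine 9 (H3K9) methylation and heterochromatin factors are described here by the expression of 10 genes, Setdb1, Trim28, Suv39h1, Suv39h2, Ehmt1, Ehmt2, Cbx1, Cbx3, Cbx5 and Atrx, which were taken by name from a table of 20703 genes. All 10 were found, and all were expressed in every library. RNA-seq was carried out on E14 mESCs, an established mouse embryonic stem cell line, that were WT or had lost both copies of exon 5 of Nsd1, a methyltransferase of histone H3 lysine 36. The deletion was made with Cas9 ribonucleoproteins cutting in both flanking introns, in an E14 line whose endogenous Nsd1 carried a 3×Flag-P2A-NeoR cassette at its C terminus, and the labels do not say whether the WT libraries carry this cassette. The knockout (KO) groups come from 2 clonal lines, KO-1 and KO-2, and each clone is the descendant of 1 edited cell. Cells of day 0 were grown with serum and LIF. The methods of the paper give either mouse embryonic fibroblast (MEF) feeder cells or gelatin as the support of undifferentiated cells. Cells of day 2 and day 4 were taken after withdrawal of LIF and MEFs. Each line had 2 biological replicates per day, which gave 2 WT and 4 KO libraries at each of 3 days, 18 in all, with 9309874 to 23921193 counts on genes per library. The labels call them biological replicates and do not say whether they were separate cultures of a line, so p-values measure the spread between these samples.

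H3K9 methylation marks silent chromatin. Setdb1 trimethylates H3K9 where it is brought by Trim28 (also known as KAP1), a corepressor that KRAB zinc finger proteins carry to their target DNA, and in mESCs this pathway is best known for silencing endogenous retroviruses. Suv39h1 and Suv39h2 place the same mark mainly at pericentromeric repeats, whereas Ehmt1 (GLP) and Ehmt2 (G9a) form a heterodimer that mono- and dimethylates H3K9 in euchromatin. The HP1 proteins encoded by Cbx5 (HP1α), Cbx1 (HP1β) and Cbx3 (HP1γ) bind methylated H3K9, and Atrx is a remodeller that loads a histone H3 variant into telomeric and pericentromeric heterochromatin together with Daxx.

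The promoters of 4 members are printed as sequence context, those of Setdb1 and Trim28, which act together, and those of the Suv39h paralogs, whose transcripts moved in opposite directions at day 0. Each run holds the 300 bases from 250 before to 50 after a RefSeq start on build GRCm38.p6, 5′ to 3′ on the strand of the gene. Capitals mark matches, on either strand, to GGGCGG (SP1), CCAAT (NF-Y), CCGGAA (ETS factors) or AGGCCT (ZFX), and no marked matches overlap. The locations are chr3:95357153-95357452 (minus strand) for Setdb1, chr7:13023902-13024201 (plus strand) for Trim28, chrX:8074711-8075010 (minus strand) for the upstream of 2 Suv39h1 starts, and chr2:3474937-3475236 (minus strand) for Suv39h2.
Setdb1: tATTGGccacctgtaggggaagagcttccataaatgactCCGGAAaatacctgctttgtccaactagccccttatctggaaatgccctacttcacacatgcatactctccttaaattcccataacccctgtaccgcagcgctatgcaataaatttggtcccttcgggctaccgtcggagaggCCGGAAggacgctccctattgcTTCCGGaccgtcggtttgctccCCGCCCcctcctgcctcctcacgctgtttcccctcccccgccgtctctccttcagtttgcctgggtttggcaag
Trim28: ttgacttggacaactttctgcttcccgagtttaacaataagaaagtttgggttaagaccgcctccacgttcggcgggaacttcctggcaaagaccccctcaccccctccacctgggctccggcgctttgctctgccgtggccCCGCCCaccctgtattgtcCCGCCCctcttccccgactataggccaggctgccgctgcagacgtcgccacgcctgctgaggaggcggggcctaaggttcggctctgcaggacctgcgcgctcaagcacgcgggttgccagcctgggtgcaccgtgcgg
Suv39h1: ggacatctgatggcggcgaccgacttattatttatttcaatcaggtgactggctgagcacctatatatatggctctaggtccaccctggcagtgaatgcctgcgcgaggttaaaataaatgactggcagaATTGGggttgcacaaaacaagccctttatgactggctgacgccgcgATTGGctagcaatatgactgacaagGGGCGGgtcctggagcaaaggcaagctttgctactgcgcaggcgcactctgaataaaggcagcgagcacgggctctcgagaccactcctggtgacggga
Suv39h2: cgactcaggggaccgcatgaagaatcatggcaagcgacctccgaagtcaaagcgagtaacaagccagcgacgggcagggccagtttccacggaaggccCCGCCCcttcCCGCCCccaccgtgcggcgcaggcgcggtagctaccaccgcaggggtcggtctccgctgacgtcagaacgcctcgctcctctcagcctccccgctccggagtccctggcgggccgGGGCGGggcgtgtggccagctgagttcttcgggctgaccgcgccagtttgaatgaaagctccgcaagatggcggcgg
Of all 32851 RefSeq promoters of this length, 35.7% held the SP1 letters, 37.4% the NF-Y letters, 14.9% the ETS letters and 10.3% the ZFX letters. Setdb1 had 3 ETS matches, 1 SP1 match and 1 NF-Y match, and Trim28 had 2 SP1 matches. Suv39h1 had 2 NF-Y matches and 1 SP1 match, whereas Suv39h2 had 3 SP1 matches and none to the NF-Y letters. The other Suv39h1 start (chrX:8074312-8074611) had 1 SP1 match, none to the NF-Y letters and 37 CpG dinucleotides, so the paralogs differ in NF-Y letters at one of the starts alone. The printed promoters had 15, 23, 15 and 33 CpG dinucleotides in the same order, against a median of 7 over all promoters. A match describes the letters in this window and was not tested as a binding site.

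The targeted gene was examined first. At day 0 the normalized count of Nsd1 was 718 ± 85.4 in KO (SD, n = 4) against 3517 ± 202 for the WT libraries (SD, n = 2), or 4.90-fold lower in KO. It was 3.25-fold lower at day 2 and 2.77-fold lower at day 4, with all KO libraries lower than either WT library throughout. Normalized counts are the counts recovered from the deposited values and divided by the size factors of the authors.

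Values are given below on the log2 scale of the deposited data, which the authors obtained by the variance stabilizing transformation (VST) in DESeq2. On it a gene with no counts has the value 8.359, and differences are compressed, most of all for weakly expressed genes. KO and WT were compared by limma in one fit of all 18 libraries, and p-values were adjusted by Benjamini-Hochberg over the whole table. A gene passed the test at an adjusted p under 0.01. It was called as a DEG if its absolute log2 fold change was also over 0.58. These are the thresholds of the study, which set them with DESeq2 on counts. Fold changes tend to be smaller on the VST scale, so the fold threshold is stricter here. At day 0 Setdb1 had 0.47 on this scale and 0.57 by limma-voom, and Suv39h1 had −0.26 and −0.70.

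A trend on transcript length differed between KO and WT libraries and bears on several members, and whether it was technical was not tested. When the deviation of each gene from its mean was set against transcript length, the WT libraries had mean slopes of −0.071, −0.131 and −0.041 VST units per doubling of length at day 0, 2 and 4, and the KO libraries had 0.025, 0.049 and 0.048. On average KO libraries read long transcripts higher than WT libraries did, with slopes that did not overlap at day 0 and day 2 and did at day 4, and Atrx and Cbx5 stood at the 97.1 and 94.6 percentiles of transcript length, with Ehmt1 at 80.2 and Setdb1 at 77.6. The highest slopes were those of KO-1 day 4 replicate 1 (0.184) and KO-1 day 0 replicate 1 (0.134), and the lowest was that of WT day 2 replicate 1 (−0.167). KO-1 day 4 replicate 1 had the highest Cbx5 and Atrx values of its day. The comparisons of KO and WT were therefore repeated with the trend on length and GC content removed from every library, a correction chosen after seeing the data, and without each of these libraries, and for the members values are given where a call changed.

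At day 0, before differentiation, Setdb1 and Suv39h2 were higher in KO, and Suv39h1 and Ehmt2 were lower. These 4 of the 10 members passed the test, where 19.6% of all genes did. No member was a DEG with the limma fit (2.61% of all genes), 6 had an unadjusted p under 0.05, and limma-voom on the recovered counts called 1 member, Suv39h1. No share of all genes is given for an unadjusted p under 0.05 or for limma-voom, here or below. Counts of these kinds therefore cannot be set against a background. The 4 KO libraries lay on one side of both WT libraries for 7 members, 5 above and 2 below, where this held for 47.4% of all genes. With length and GC corrected, 6 members passed at day 0 (23.7% of all genes), the same 4 with Atrx (0.29, limma adjusted p = 0.00702) and Cbx5 (−0.23, limma adjusted p = 0.00656) added, and without KO-1 day 0 replicate 1 there were 5, with Cbx1 added (−0.32, limma adjusted p = 0.00652).

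At day 2 the members that passed were Setdb1 and Trim28, both higher in KO, 2 of 10 where 34.1% of all genes passed. None was a DEG (6.38% of all genes), with 6 at an unadjusted p under 0.05 and 0 called by limma-voom. KO libraries were separate from WT for 7 members, 3 above and 4 below, against 57.5% of all genes. The calls of this day changed most under the correction, which removed the trends on length and GC content at once, so their parts are not separated. In the corrected fit neither Setdb1 (0.06, limma adjusted p = 0.214) nor Trim28 (0.19, limma adjusted p = 0.0152) passed. There 5 others did (36.3% of all genes), all lower in KO, namely Ehmt1 (−0.22), Ehmt2 (−0.40), Suv39h1 (−0.21), Cbx3 (−0.31) and Cbx5 (−0.41). Without WT day 2 replicate 1, the library with the lowest length slope, neither Setdb1 (0.24) nor Trim28 (0.29) passed at day 2. With all libraries these differences were 0.27 and 0.34. That fit left 1 WT library at day 2, with the spread taken from the other groups. Whether length had a part in the lost calls was not tested. Without KO-1 day 4 replicate 1, which enters the shared spread, 4 members passed at day 2, with Cbx3 and Atrx added.

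At day 4 Trim28 and Cbx1 passed, both higher in KO, 2 of 10 where 28.2% of all genes passed. There was again no DEG (7.58% of all genes), 4 members had an unadjusted p under 0.05, and limma-voom called 0. KO libraries lay apart from WT for 4 members, all of them above, against 49.8% of all genes. The same 2 members passed with length and GC corrected (31.9% of all genes), and without KO-1 day 4 replicate 1 Cbx1 no longer did (0.37, limma adjusted p = 0.0104). Over the 10 members the median log2 fold change was 0.05, −0.07 and 0.09 at day 0, 2 and 4, and that over all genes was 0.00, −0.02 and 0.00. With length and GC corrected the medians of the members were −0.06, −0.17 and 0.02, so that the sign at day 0 turned. The shares of members that passed at day 2 and day 4 were near or under the background as deposited, and that of day 2 was above it when corrected.

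**Figure D1:**
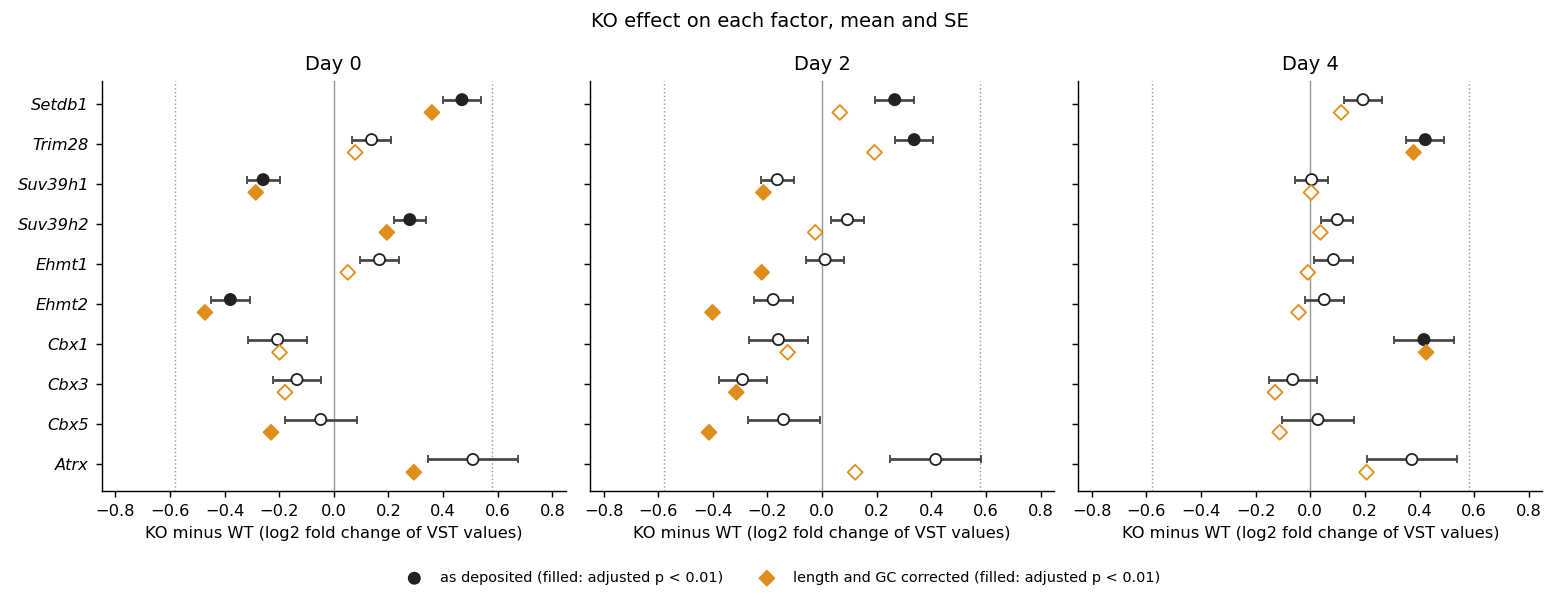
KO effect on each of the 10 factors at day 0, 2 and 4, as the log2 fold change of VST values (KO minus WT, horizontal axis; circles, with SE bars) and after correction for transcript length and GC content (diamonds), filled where the adjusted p was under 0.01, with dotted lines at ±0.58. No member passed the dotted lines, and the diamonds of Setdb1, Ehmt1, Ehmt2, Cbx5 and Atrx at day 2 lie well to the left of their circles.

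Setdb1 (ENSMUSG00000015697, chr3:95323525-95357202 on GRCm38, minus strand), which places H3K9me3 in the Trim28 pathway, had VST values of 11.44 and 11.45 in the WT libraries of day 0 and 11.86, 11.88, 11.91 and 11.99 in the KO libraries. All KO values were above both WT values, with no difference between the clones larger than the spread of their replicates. In normalized counts, Setdb1 had 2170 ± 16.3 in WT (SD, n = 2) and 3231 ± 154 in KO (SD, n = 4), a 1.49-fold higher level in KO (log2 fold change 0.47, SE 0.07, limma adjusted p = 3.69e-05). Each clone alone gave the same call (0.49 for KO-1 and 0.45 for KO-2), and so did the fit with length and GC corrected (0.36).

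After LIF withdrawal Setdb1 fell in KO. WT libraries read 11.31 and 11.36 at day 2 and 11.36 and 11.44 at day 4, and KO libraries read 11.52 to 11.69 and 11.46 to 11.72. From day 0 to day 4 the KO level fell by 0.32 on the log2 scale (limma adjusted p = 9.76e-05), while the WT change of −0.05 did not pass. The KO effect was 0.27 at day 2 (limma adjusted p = 0.00435). This call was lost when WT day 2 replicate 1 (0.24) or 2 (0.29) or KO-2 day 2 replicate 1 (0.26) or 2 (0.24) was left out. It was also lost with quantile scaling (0.18, limma adjusted p = 0.0211) and with KO-1 alone (0.22, limma adjusted p = 0.015). At day 4 the KO effect was 0.19 (limma adjusted p = 0.0371), with the KO-1 libraries at 11.67 and 11.72 above the KO-2 libraries at 11.46 and 11.52. It passed with the clones as separate groups (limma adjusted p = 0.00368). The change of the KO effect from day 0 to day 4 was −0.28 (limma adjusted p = 0.0466) and did not pass as deposited. With length and GC corrected it was −0.25 and passed (limma adjusted p = 0.00229).

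Trim28 (ENSMUSG00000005566, chr7:12999114-13031035, plus strand), the corepressor that recruits Setdb1, was the most abundant of the 10 transcripts. It had VST values of 15.26 and 15.32 in WT and 15.38 to 15.55 in KO at day 0, 14.84 and 14.93 in WT and 15.13 to 15.30 in KO at day 2, and 14.53 and 14.59 in WT and 14.96 to 15.00 in KO at day 4. KO libraries were above WT libraries at every day, and the level fell over the days in both genotypes. From day 2 to day 4 the change was −0.32 in WT and −0.24 in KO. That step depended on the scaling. With quantile scaling it was −0.03 in WT (limma adjusted p = 0.856) and −0.17 in KO (limma adjusted p = 0.121), and neither passed. In WT, Trim28 fell from 39486 ± 1137 to 23494 ± 648 normalized counts between day 0 and day 4 (SD, n = 2 for each; log2 fold change −0.73, limma adjusted p = 1.65e-07), a 1.68-fold lower level. In KO it fell from 43550 ± 2553 to 31678 ± 341 (SD, n = 4 for each), or 1.37-fold (−0.45, limma adjusted p = 1.38e-06).

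The KO effect on Trim28 was 0.14 at day 0 (limma adjusted p = 0.152), 0.34 at day 2 (limma adjusted p = 5.37e-04) and 0.42 at day 4 (limma adjusted p = 5.2e-05), the last a 1.35-fold higher level. KO-1 alone and KO-2 alone both gave 0.42 at day 4, and leaving out any 1 library did not end that call. At day 2 the call was lost without WT day 2 replicate 1 (0.29). The difference of the KO effect between day 0 and day 4 was 0.28 and did not pass (limma adjusted p = 0.0384), whereas by limma-voom it was 0.30 and did (adjusted p = 0.00907).

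**Figure D2:**
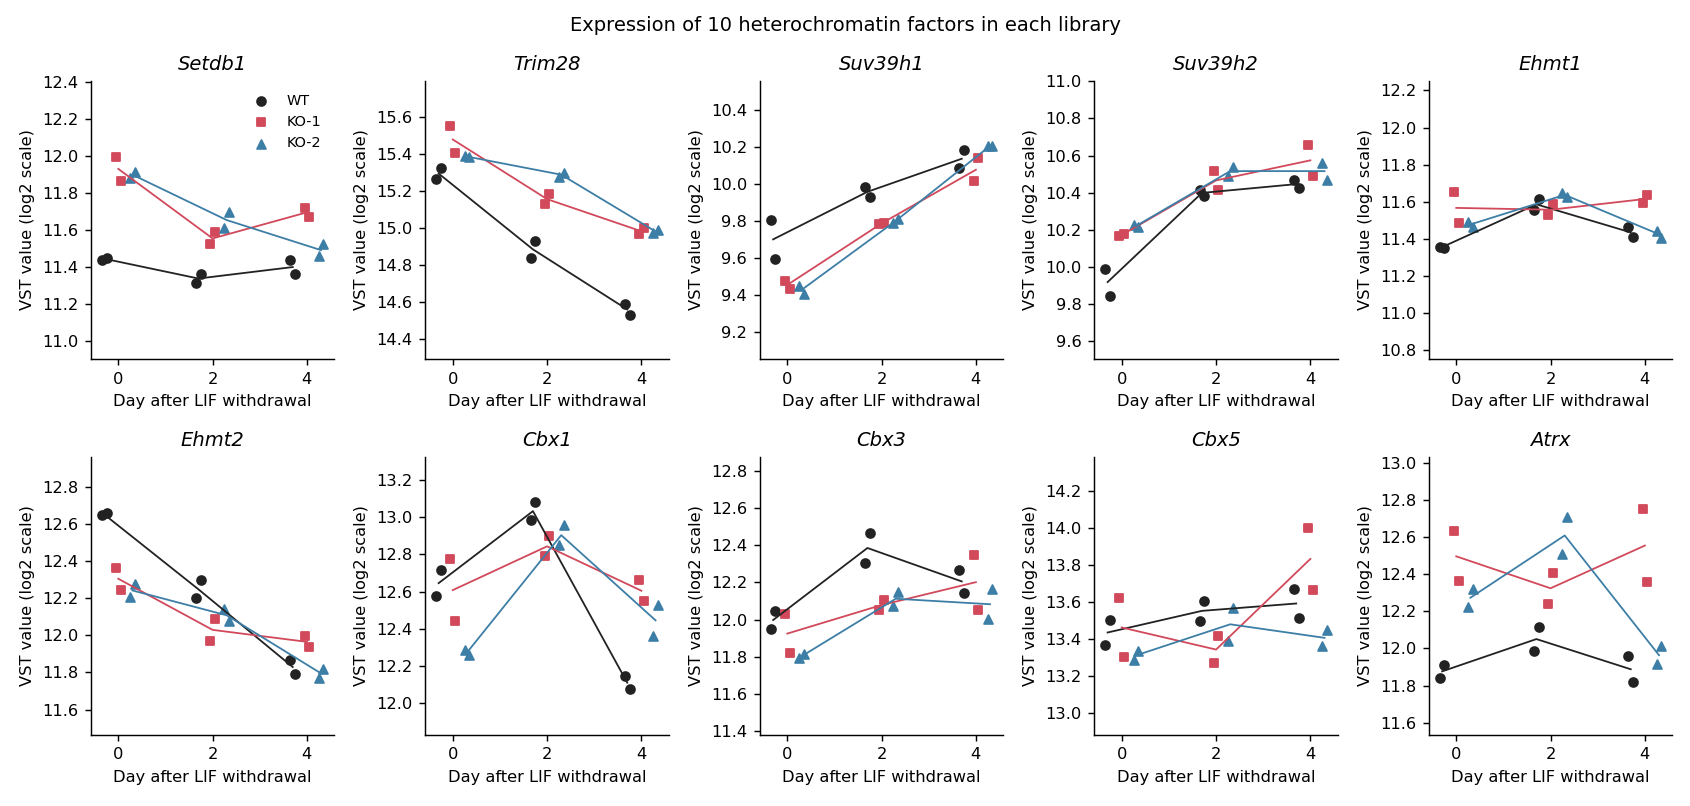
VST value (vertical axis, log2 scale) of each of the 10 factors in all 18 libraries by day after LIF withdrawal; points are libraries and lines join the means of WT, KO-1 and KO-2, and every panel spans 1.5 VST units. KO libraries of Setdb1 and Trim28 lie above both WT libraries at every day, and the WT line of Cbx1 crosses both KO lines between day 2 and day 4.

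The Suv39h paralogs, which trimethylate H3K9 at pericentromeric repeats, were the least abundant members at day 0 and changed in opposite directions. Suv39h1 had VST values of 9.60 and 9.81 in WT and 9.41, 9.44, 9.45 and 9.48 in KO at day 0. Suv39h2 had 9.84 and 9.99 in WT and 10.16, 10.18, 10.21 and 10.22 in KO. Suv39h1 (ENSMUSG00000039231) lies at chrX:8061171-8074760 and Suv39h2 (ENSMUSG00000026646) at chr2:3455815-3475031, both on the minus strand. Neither gene had overlapping groups, and in both the WT replicates were further apart than the KO replicates.

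In normalized counts Suv39h1 was 308 ± 71.7 for WT (SD, n = 2) and 194 ± 11.2 for KO (SD, n = 4), a 1.59-fold lower level in KO (log2 fold change −0.26, SE 0.06, limma adjusted p = 0.00253), from 129 to 428 counts per library. At this level the VST scale compresses differences, and limma-voom on the recovered counts gave −0.70 (adjusted p = 0.00116). Suv39h2 was 423 ± 61.2 in WT (SD, n = 2) and 608 ± 21.5 in KO (SD, n = 4), 1.44-fold higher (0.28, SE 0.06, limma adjusted p = 0.00115). Both calls rested on the WT libraries of day 0. Without WT day 0 replicate 1 Suv39h1 did not pass (−0.16, limma adjusted p = 0.136), and without WT day 0 replicate 2 Suv39h2 did not (0.21, limma adjusted p = 0.0634). With KO-1 alone the limma adjusted p was 0.0166 for Suv39h1 and 0.0127 for Suv39h2, and with each day fitted alone it was 0.0252 for Suv39h1.

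Both Suv39h genes rose during differentiation. In WT, Suv39h1 rose by 0.44 and Suv39h2 by 0.53 on the log2 scale from day 0 to day 4 (limma adjusted p = 2.32e-05 and 1.45e-06). These were 1.84-fold and 1.93-fold rises of normalized counts. In KO, Suv39h1 rose by 0.70, from 194 to 571 normalized counts or 2.94-fold, and was the one member called as a DEG for that interval (6.5% of all genes), by limma and by limma-voom. Whether it rose more in KO than in WT depended on the scale and the correction. The difference was 0.26 and did not pass by limma as deposited (adjusted p = 0.0252). It passed with length and GC corrected (0.29, limma adjusted p = 0.00673) and by limma-voom (0.71, adjusted p = 0.00621). At day 4 KO and WT overlapped in Suv39h1, with 10.09 and 10.19 in WT and 10.02 to 10.21 in KO. Per kb of exon, Suv39h2 exceeded Suv39h1 by a ratio of 1.55 and 1.76 in the WT libraries of day 0 and by 3.37 to 4.12 in the KO libraries. By day 4 the ratio was 1.58 and 1.88 in WT and 1.63 to 2.54 in KO, and the groups overlapped.

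Ehmt2 and Ehmt1, the heterodimer of H3K9 mono- and dimethylation, did not move together. Ehmt2 (ENSMUSG00000013787) lies at chr17:34898469-34914052 on the plus strand and Ehmt1 (ENSMUSG00000036893) at chr2:24789928-24919614 on the minus strand. Ehmt2 had VST values of 12.65 and 12.66 in WT and 12.21, 12.25, 12.28 and 12.36 in KO at day 0, all KO values below both WT values. In normalized counts it was 5800 ± 32.2 in WT (SD, n = 2) and 4321 ± 232 in KO (SD, n = 4), 1.34-fold lower in KO (log2 fold change −0.38, SE 0.07, limma adjusted p = 3.51e-04). Either clone alone gave the call (−0.35 and −0.41), it was larger with length and GC corrected (−0.47), and it was kept without any 1 library.

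Ehmt2 then fell by 0.82 in WT from day 0 to day 4 (1.92-fold, limma adjusted p = 3.65e-08) and by 0.39 in KO (1.37-fold, limma adjusted p = 8.68e-06). At day 2 the values were 12.20 and 12.30 in WT and 11.97 to 12.14 in KO, and at day 4 they were 11.79 and 11.87 in WT and 11.77 to 11.99 in KO. The groups came to overlap at day 4, and the KO effect at day 4 was above that at day 0 by 0.43 (SE 0.10, limma adjusted p = 0.00264). This difference did not pass without WT day 0 replicate 1 (0.44) or 2 (0.42) or WT day 4 replicate 2 (0.39). Ehmt1 varied within 11.35 to 11.65 over all 18 libraries and did not pass between KO and WT at any day as deposited, with 0.17 at day 0 (limma adjusted p = 0.0799) and 0.01 at day 2. With length and GC corrected it passed at day 2 (−0.22, limma adjusted p = 1.2e-04). The ratio of Ehmt2 to Ehmt1 per kb was 4.25 and 4.31 in WT and 2.65 to 2.91 in KO at day 0, and 2.05 and 2.09 in WT and 1.90 to 2.11 in KO at day 4.

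Among the HP1 genes, Cbx1 passed between the genotypes, at day 4. Cbx1 had VST values of 12.58 and 12.71 in WT at day 0, 12.99 and 13.08 at day 2, and 12.07 and 12.14 at day 4. The KO libraries had 12.26 to 12.78, 12.79 to 12.96 and 12.36 to 12.66. WT libraries thus peaked at day 2 and ended below all KO libraries. At day 0 the groups overlapped, with −0.04 for KO-1 alone and −0.38 for KO-2 alone, which passed (limma adjusted p = 5.76e-05). From day 2 to day 4 Cbx1 fell by 0.93 in WT (2.05-fold, limma adjusted p = 4.92e-06) and by 0.35 in KO (1.30-fold, limma adjusted p = 0.00606). The fall in KO did not pass with KO-1 alone (−0.24) or with a replicate block of each day (limma adjusted p = 0.0128). Nor did it pass without KO-1 day 2 replicate 2 (−0.34) or KO-2 day 2 replicate 1 (−0.36) or 2 (−0.32). The same held without KO-1 day 4 replicate 2 (−0.36) or KO-2 day 4 replicate 1 (−0.30) or 2 (−0.35).

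At day 4 the normalized count of Cbx1 was 3785 ± 154 in WT (SD, n = 2) and 5270 ± 495 in KO (SD, n = 4), 1.39-fold higher in KO (log2 fold change 0.42, SE 0.11, limma adjusted p = 0.00442). The call was lost without WT day 4 replicate 1 (0.45) or 2 (0.38) or KO-1 day 4 replicate 1 (0.37) or 2 (0.41), or with each day fitted alone (limma adjusted p = 0.0139). The KO effect at day 4 exceeded that at day 0 by 0.62 (SE 0.15, limma adjusted p = 0.00433) and that at day 2 by 0.58 (limma adjusted p = 0.00756). The first did not pass without WT day 0 replicate 2 (0.55), KO-2 day 0 replicate 1 (0.57) or WT day 4 replicate 1 (0.66) or 2 (0.59). The second was lost without any of 13 of the 18 libraries (0.53 to 0.62), with length and GC corrected (0.55, limma adjusted p = 0.0115), with a replicate block (limma adjusted p = 0.0107) and with libraries centred on their median (0.55, limma adjusted p = 0.0131).

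Cbx3 and Cbx5 did not pass at any day as deposited. Cbx3 had 12.31 and 12.47 in WT and 12.05 to 12.15 in KO at day 2, where all KO libraries were lower (−0.29, limma adjusted p = 0.0102). It passed there without KO-1 day 0 replicate 1, KO-1 day 4 replicate 1 or KO-2 day 4 replicate 1 (limma adjusted p = 0.0051, 0.00249 and 0.00686), and with length and GC corrected (−0.31, limma adjusted p = 0.00147). Cbx5 had log2 fold changes of −0.05, −0.14 and 0.03 at the 3 days, with overlapping groups. With length and GC corrected it passed as lower in KO at day 0 (−0.23, limma adjusted p = 0.00656) and day 2 (−0.41, limma adjusted p = 1.07e-05). Its KO libraries of day 4 spanned 13.36 to 14.00, and the highest was KO-1 day 4 replicate 1. Per kb of exon, the ratio of Cbx5 to Cbx1 was 0.862 and 0.855 in WT at day 0, 0.694 and 0.700 at day 2 and 1.51 and 1.43 at day 4. In KO it went from 0.891 to 1.08 at day 0 through 0.680 to 0.747 at day 2 to 0.952 to 1.28 at day 4, so that at day 4 every KO library was below both WT libraries. Cbx1 (ENSMUSG00000018666) lies at chr11:96789127-96808640 and Cbx3 (ENSMUSG00000029836) at chr6:51470360-51483704, both on the plus strand, and Cbx5 (ENSMUSG00000009575) at chr15:103191544-103239816 on the minus strand. Cbx1 and Cbx3 have processed pseudogenes, and how reads shared with them were counted is not given in the sources used here.

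Atrx (ENSMUSG00000031229, chrX:105797615-105929403, minus strand), the remodeller of heterochromatin, was higher in KO at day 0 and day 2 on the VST scale, by differences that did not pass as deposited. VST values were 11.84 and 11.91 in WT and 12.22, 12.32, 12.36 and 12.63 in KO at day 0, with a log2 fold change of 0.51 (SE 0.17, limma adjusted p = 0.0247). At day 2 they were 11.98 and 12.12 in WT and 12.24, 12.41, 12.51 and 12.71 in KO (0.42, limma adjusted p = 0.0457). All KO libraries were above both WT libraries at these 2 days, and in fits with 1 clone KO-1 (0.62) and KO-2 (0.40) both passed at day 0, KO-2 (0.56) at day 2 and KO-1 (0.67) at day 4. With KO-1 alone, Atrx was a DEG at day 0 and at day 4. With the clones as separate groups in the fit, which takes their difference out of the spread, Atrx passed at all 3 days (limma adjusted p = 2.03e-04, 8.62e-04 and 0.00265). At day 4 the KO-1 libraries read 12.36 and 12.75 and the KO-2 libraries 11.92 and 12.01, against 11.82 and 11.96 in WT (0.37, limma adjusted p = 0.0871).

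Atrx was the one member that passed between the clones, by 0.59 at day 4 with KO-1 higher (SE 0.11, limma adjusted p = 0.00172), 1 of 10 where 5.16% of all genes passed. No member passed between the clones at day 0 (0.203% of all genes) or day 2 (0.338%), with 1 at an unadjusted p under 0.05 at each of these days, and limma on only the 4 KO libraries of a day gave 0 at all 3 days. Atrx has the longest transcript of the set. With length and GC corrected, the KO effect was 0.29 at day 0, 0.12 at day 2 (limma adjusted p = 0.235) and 0.21 at day 4 (limma adjusted p = 0.046), and the difference of the clones at day 4 was 0.29 (limma adjusted p = 0.00102). Without KO-1 day 4 replicate 1, the spread of the whole fit was smaller and Atrx passed at day 0 (limma adjusted p = 0.00293) and day 2 (limma adjusted p = 0.00803), while its day 4 value dropped to 0.21 (limma adjusted p = 0.238).

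The time courses of the set can be counted over the members. In WT, 5 of 10 passed from day 0 to day 2, 3 from day 2 to day 4 and 5 from day 0 to day 4, where 28.6%, 31.5% and 39.5% of all genes did. The 5 members of the whole interval were Suv39h1 and Suv39h2, which rose, and Trim28, Ehmt2 and Cbx1, which fell, and Trim28 and Ehmt2 were DEGs (13.8% of all genes). By limma-voom on the recovered counts, which is not on the VST scale, all 5 were DEGs, with Suv39h1 (0.86), Suv39h2 (0.93) and Cbx1 (−0.61) added. The share of all genes that limma-voom called for this interval is not given. By limma, the fall of Cbx1 did not pass without WT day 0 replicate 2 (−0.47) or WT day 4 replicate 2 (−0.50). In KO, 6, 3 and 6 members passed for the same intervals, against 25.5%, 16.1% and 37.9% of all genes. With a replicate block the first was 4, as Trim28 and Ehmt2 did not pass, and with a block of each day the first 2 counts were 4 and 1. The counts with length and GC corrected were 6, 4 and 5 in WT and 6, 5 and 7 in KO. No corrected share of all genes is given for these intervals, so these counts cannot be set against a background. The KO members of the whole interval were Suv39h1, Suv39h2 and Cbx3, which rose, and Trim28, Ehmt2 and Setdb1, which fell. The rise of Cbx3 did not pass with KO-1 alone (0.28, limma adjusted p = 0.0378) or without KO-1 day 0 replicate 2 (0.27). Nor did it without KO-2 day 0 replicate 1 (0.26) or 2 (0.26) or KO-1 day 4 replicate 1 (0.21). The KO effect itself changed for 0 members between day 0 and day 2 (12.3% of all genes; 1 at an unadjusted p under 0.05 and 0 by limma-voom), for Cbx1 between day 2 and day 4 (18.9%), and for Cbx1 and Ehmt2 between day 0 and day 4 (18.1%). As a DEG by both thresholds, Cbx1 was the one member for the last of these (6.93% of all genes), and limma-voom called Cbx1 and Suv39h1. With length and GC corrected, Setdb1 (−0.29, limma adjusted p = 6.83e-04) and Ehmt1 (−0.27, limma adjusted p = 0.00127) passed between day 0 and day 2. Between day 2 and day 4, Ehmt1 (0.21) and Ehmt2 (0.36) passed and Cbx1 did not. Between day 0 and day 4, Setdb1 and Suv39h1 were added. No corrected share of all genes is given for these changes.

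In bulk RNA, fewer cells of a type and less RNA per cell cannot be told apart, and the RNA of marker genes differed between the genotypes. The summed normalized counts of 8 pluripotency markers were 76380 and 77400 in WT and 80770 to 83560 in KO at day 0, and 10070 and 10180 in WT and 20820 to 22880 in KO at day 4. Those of 6 primitive streak and mesoderm markers at day 4 were 29330 and 30110 in WT and 338 to 880 in KO, with Eomes the most abundant of these genes in 16 of the 18 libraries. Markers of the labelled cell type were present, and Sox2 (13.31 and 13.33 in WT, 13.55 to 13.59 in KO) and Esrrb (13.55 and 13.58 in WT, 13.73 to 13.85 in KO) were high in all libraries of day 0. At day 4 Sox2 was 2.72 and Esrrb 2.15 higher in KO on the log2 scale, and T (−4.80) and Mixl1 (−4.02) were lower, all of them DEGs. Pou5f1, the gene of the core pluripotency factor Oct4, went the other way and was lower in KO at every day (−0.39, −0.70 and −0.54, the second a DEG), so that 2, 6 and 7 of the 8 markers passed as higher and 1 as lower at day 0, 2 and 4 (19.6%, 34.1% and 28.2% of all genes).

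Fibroblast markers, listed for the MEF feeder cells, were also detected. The summed counts of the 7 markers, led by Col1a1 in all 18 libraries, were 2555 and 2616 in WT and 4316 to 5086 in KO at day 0, 899.5 and 1045 in WT and 543 to 691 in KO at day 2, and 2175 and 2327 in WT and 547 to 1245 in KO at day 4. Col1a1 (0.68), Col1a2 (0.60) and Col3a1 (0.62) were DEGs with higher values in KO at day 0 (2.61% of all genes), beside the day 0 differences of Setdb1, Suv39h1, Suv39h2 and Ehmt2. Of the 7 markers, 3 passed at day 0 as deposited and 2 with length and GC corrected (19.6% and 23.7% of all genes). At least 1 of the 7 markers was at 0 in each library of day 0. Of 11 replication and cell cycle genes, limma passed 0 at day 0, where 3 had an unadjusted p under 0.05, and it passed 1 at day 2 and 6 at day 4, all higher in KO, where 19.6%, 34.1% and 28.2% of all genes passed. When corrected, 2 were lower in KO at day 0, 1 was higher and 4 were lower at day 2, and 7 were higher at day 4. The shares of all genes that passed when corrected were 23.7%, 36.3% and 31.9%. At day 4 the replication genes had summed counts of 59480 and 61720 in WT and 68710 to 75090 in KO. The cells that these transcripts came from were not identified, and the part of feeder cells, differentiation state or cell cycle in the values of the 10 factors was not tested.

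Between genes, levels can be compared only per length, as normalized counts per kb of exon. In WT at day 0, Trim28 stood at 9496 ± 273, far above Cbx1 (1351 ± 101), Cbx5 (1160.3 ± 80.1), Ehmt2 (1057 ± 5.86), Cbx3 (578 ± 32.4), Setdb1 (317 ± 2.38), Ehmt1 (247 ± 0.972), Atrx (144 ± 6.12), Suv39h2 (95.9 ± 13.9) and Suv39h1 (58.5 ± 13.6) (SD, n = 2 for each). The SD ranges of neighbours in this order did not overlap. The order was the same in KO at day 0, but there Cbx1 (1165 ± 228) and Cbx5 (1124 ± 137), and Cbx3 (518 ± 49.1) and Setdb1 (472 ± 22.4), overlapped in their SD ranges (n = 4 for each). By day 4 Cbx5 (1302 ± 105) had overtaken Cbx1 (886 ± 36.0) in WT, and Ehmt2 (549 ± 25.9) had dropped below Cbx3 (683 ± 47.3), and Suv39h2 (185 ± 6.36) stood above Atrx (146). The order of the means was the same in KO at day 4, where the SD ranges of Cbx5 (1347 ± 290) and Cbx1 (1233 ± 116), of Cbx3 (652 ± 83.1) and Ehmt2 (574 ± 48.9), and of Suv39h2 (207 ± 19.5) and Atrx (202 ± 63.1) overlapped.

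**Figure D3:**
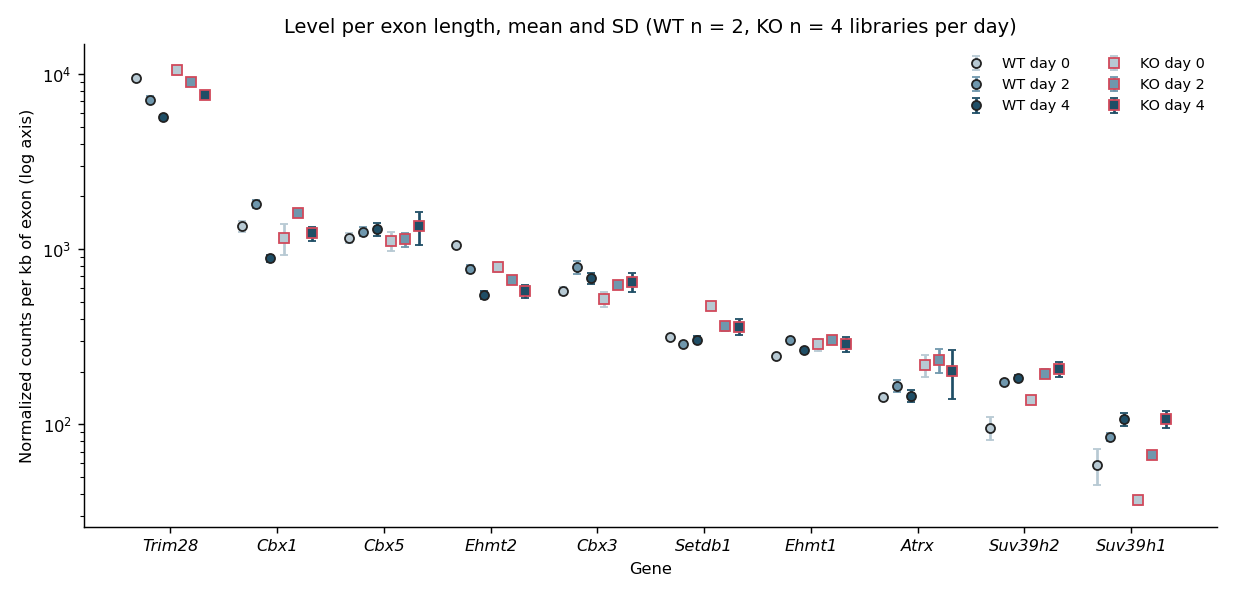
Normalized counts per kb of exon (vertical log axis) of the 10 factors, ordered by the WT level of day 0; circles with black rims are WT means (n = 2 libraries) and squares with red rims KO means (n = 4), darker fills are later days, and bars are SD. Trim28 lies at 5650.2 to 10474 and Suv39h1 at 36.9 to 108, and Ehmt2 and Trim28 fall from day to day in both genotypes.

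As a description over the 18 libraries, which share genotype, day and depth, the VST values of Setdb1 correlated best within the set with Trim28 (Pearson r = 0.726) and Atrx (0.706), and those of Ehmt1 with Atrx (0.782). The most opposed patterns were Suv39h2 with Ehmt2 (−0.857) and Trim28 with Suv39h1 (−0.843). Among 6017 genes with a mean VST value over 10, Setdb1 was most like Uaca (0.963), Ap3b1 (0.96) and Ninl (0.956), and Trim28 most like Tbc1d10b (0.982), Ltbp4 (0.98) and Slc25a15 (0.979). These values were not corrected for the trend on transcript length, and Setdb1, Ehmt1 and Atrx stood at the 77.6, 80.2 and 97.1 percentiles of length. The part of that trend in the correlations was not tested.

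The partners of the 10 factors were taken from lists of the pathway. Each count of genes that passed is to be read against the share of all genes that did, 19.6% at day 0, 34.1% at day 2 and 28.2% at day 4. Of 10 methyltransferase partners and other methyltransferases, 2 rose and 1 fell at day 0, 5 rose and 2 fell at day 2, and 4 rose and 0 fell at day 4. After correction for length and GC, 2, 3 and 4 rose and 1, 3 and 1 fell, where 23.7%, 36.3% and 31.9% of all genes passed. Atf7ip, which keeps Setdb1 in the nucleus and protects it from degradation, was a DEG at day 2 (0.59) and at day 4, where it had 10.35 and 10.47 in WT and 11.33 to 11.62 in KO (log2 fold change 1.03, limma adjusted p = 9.38e-09). At day 0 its log2 fold change was 0.17 and did not pass (limma adjusted p = 0.172). Prdm2, a methyltransferase of the PRDM family, was a DEG at day 2 (0.71, limma adjusted p = 4.54e-07; 0.43 with length and GC corrected).

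The HUSH complex spreads H3K9me3 together with Setdb1 and MORC proteins, and its subunits moved in different directions. Of 6 genes listed, 1 rose at day 0, 3 rose and 1 fell at day 2, and 3 rose and 1 fell at day 4, against 19.6%, 34.1% and 28.2% of all genes that passed, and the count at day 0 was near that background. When corrected, 3 rose and 2 fell at day 2, and the other counts were the same. Pphln1, which encodes the HUSH subunit periphilin, had 9.92 and 9.98 in WT and 10.38 to 10.47 in KO at day 0 (0.49, limma adjusted p = 8.78e-06), but 12.03 and 12.05 in WT and 10.76 to 10.97 in KO at day 2 (−1.18, limma adjusted p = 2.26e-11) and −0.58 at day 4. Its KO libraries were thus above WT before differentiation and below it after. Tasor, the scaffold of HUSH, was a DEG at day 2 (0.62; 0.38 with length and GC corrected), and Resf1, a cofactor of Setdb1 in retroviral silencing, at day 4 (0.89, limma adjusted p = 2.3e-05).

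KRAB zinc finger proteins bring Trim28 to DNA, and 7 of the 8 listed were measured. Of these, 2, 4 and 5 rose at day 0, 2 and 4, and 0 fell, where 19.6%, 34.1% and 28.2% of all genes passed in either direction. When corrected, the same numbers rose, and 1 fell at day 2 and at day 4. Zfp57, which guards imprinted regions, had 9.79 and 9.89 in WT and 11.06 to 11.17 in KO at day 2 (1.29, limma adjusted p = 2.12e-12), with 0.10 at day 0 and 0.51 at day 4. Zfp819 was higher in KO by 0.50, 0.81 and 0.63 at the 3 days. Their medians were 0.16, 0.23 and 0.47, and those over all genes were 0.00, −0.02 and 0.00.

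Of 11 H3K9 demethylases, 1, 3 and 3 rose and 0 fell at day 0, 2 and 4, where 19.6%, 34.1% and 28.2% of all genes passed. After correction for length and GC, 0, 2 and 3 rose and 3, 3 and 3 fell (23.7%, 36.3% and 31.9% of all genes), so that the direction of this list depended on the correction. Kdm4c was the one DEG, at day 4, with 10.42 and 10.56 in WT and 11.33 to 11.47 in KO (0.89, limma adjusted p = 1.55e-10). Of 8 genes of the H3.3 histone and its chaperones, which include Daxx, the partner of Atrx, 0 passed at day 0 with limma (3 at an unadjusted p under 0.05), 2 rose and 3 fell at day 2, and 1 fell at day 4 (19.6%, 34.1% and 28.2% of all genes), or 2 at day 4 when corrected. H3f3a, a gene of the histone, was lower at day 2 (−0.74, limma adjusted p = 4.17e-04), a call lost without WT day 2 replicate 1 (−0.62). H3f3a has near-identical copies, so its counts are uncertain. Of 8 HP1 partners and heterochromatin maintenance genes, 1 rose at day 0, 2 rose and 1 fell at day 2, and 3 rose and 1 fell at day 4, where 19.6%, 34.1% and 28.2% of all genes passed, with Uhrf1, which couples heterochromatin to maintenance of DNA methylation, at 0.52 at day 2 (limma adjusted p = 2.87e-07) and no DEG in this list. When corrected, 1, 2 and 3 rose and 2, 3 and 1 fell at the 3 days (23.7%, 36.3% and 31.9% of all genes), and the median at day 2 turned from 0.13 to −0.02.

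**Figure D4:**
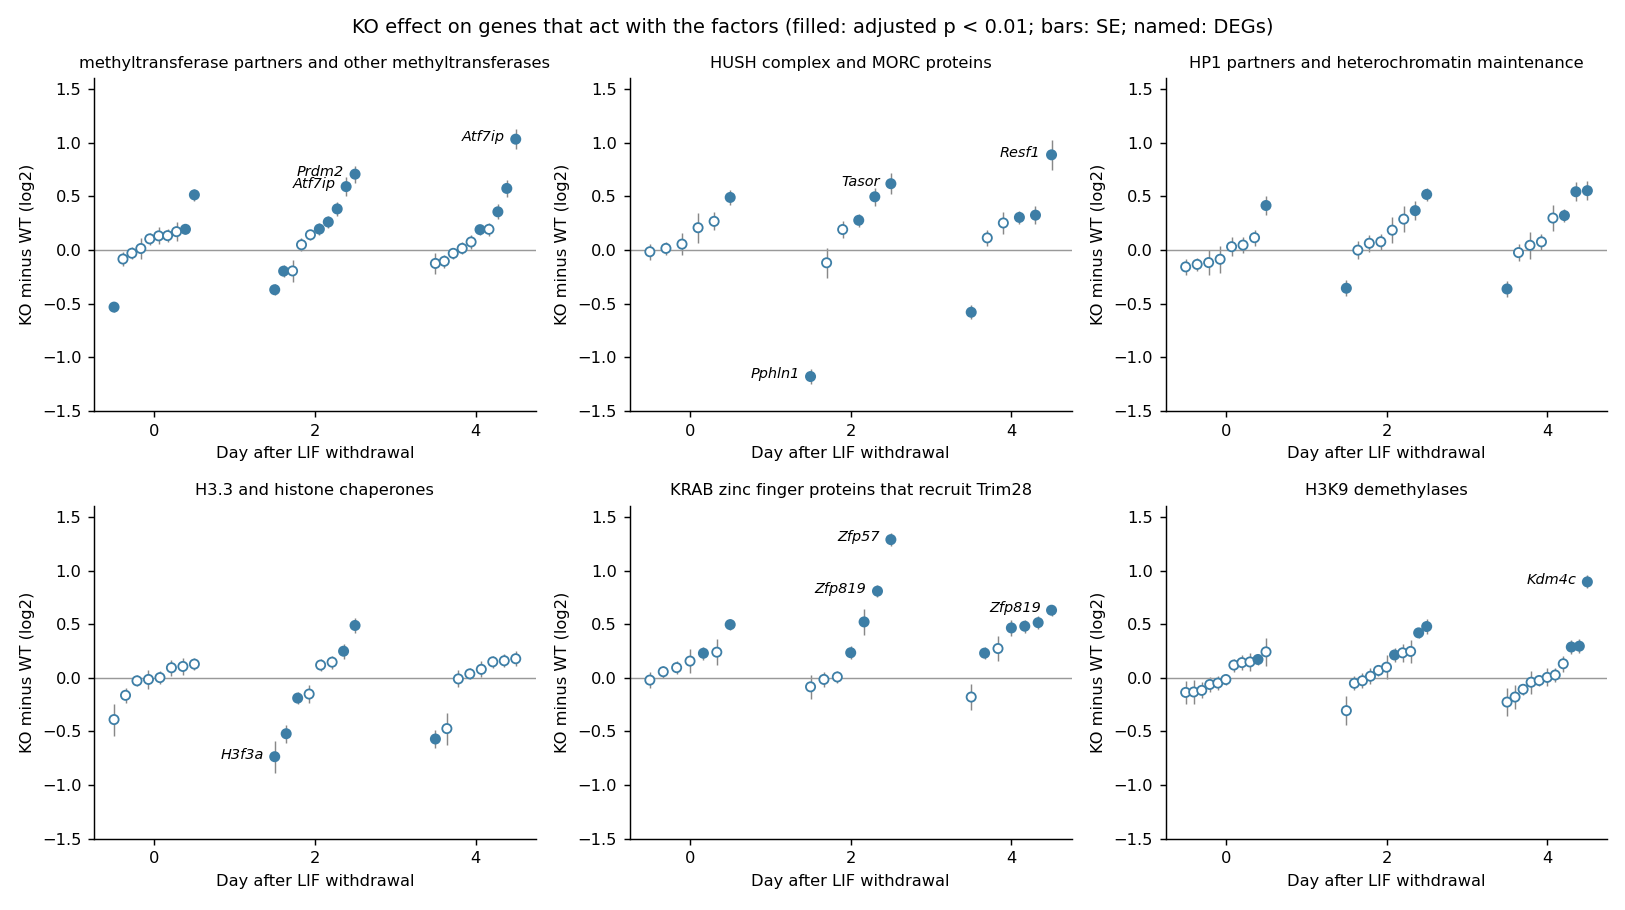
KO effect (log2 fold change of VST values, vertical axis) on each gene of 6 lists of the pathway at day 0, 2 and 4, sorted within each day; bars are SE, filled points passed an adjusted p under 0.01 and DEGs are named. The named DEGs lie at day 2 and day 4, and Pphln1 at −1.18 and H3f3a at −0.74 are the named genes below 0.

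Germline genes, some of which are known targets of H3K9 methylation, were listed as well. They were not silent in WT cells at day 0, and 9 of the 11 fell in WT from day 0 to day 4 (median −1.15; 39.5% of all genes passed), against 6 that fell and 2 that rose in KO (37.9%). Between the genotypes, 4 were higher in KO and 3 lower at day 0, 4 higher and 4 lower at day 2, and 7 higher and 0 lower at day 4, where 19.6%, 34.1% and 28.2% of all genes passed. Sohlh2, a germ cell transcription factor, had 706 and 757 normalized counts in WT and 2236 to 2365 in KO at day 0. At day 4 it had 2 and 0 counts in WT and 3325 to 6669 counts in KO. The day 4 counts are not divided by size factors, so they are not on the scale of the day 0 values. Ddx4 was higher in KO by 1.39 at day 4 (limma adjusted p = 3.12e-13), whereas Mael was lower at day 0 (−1.25, limma adjusted p = 4.51e-11). In WT, Mael fell by 1.79 on the log2 scale from day 0 to day 4, and in KO by 0.35.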

How the data were processed

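RNA-seq of polyadenylated RNA (TruSeq RNA kit, which does not mark strand, so that overlapping antisense genes cannot be told apart) was processed by the authors with Trim Galore 0.6.7, STAR 2.7.11a, mm39 and featureCounts 2.0.6, which counted primary nonduplicated fragments on exons. The deposited log2 values were made by the authors as VST values in DESeq2 1.42.0, for 20703 genes with an average count of at least 1. Inverting the transformation gave whole counts for 100% of values (tolerance 0.01), 9309874 to 23921193 per library with a median of 15721347, and 74% of counts under 30 were even. The reason for this excess is not given in the sources used here. If both reads of a pair were counted, a printed count would exceed the number of fragments and limma-voom p-values would be affected. These counts entered only limma-voom, normalized levels and printed counts.

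limma 3.58.1 (R 4.3.3) with a trend was fitted to 6 groups (WT and KO at 3 days, both clones as KO), with Benjamini-Hochberg adjustment over all genes. Clones were compared in a fit of 9 groups. The exact permutation test of 4 against 2 libraries cannot go below p = 0.0667 and was not used. Scripts were tested on simulated data. Alternatives were the clones apart, each day alone, a replicate block, quantile scaling, centring, a filter on low values, limma-voom, other thresholds, each library left out and, added after seeing the data, correction for length and GC content and a replicate block of each day. Lengths came from GENCODE M21 (GRCm38), which matched 99.5% of genes. The counts of replicates differed by more than sampling noise in every group.

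The members and lists were chosen with earlier results of these data known. Genes named are the 10 members, Nsd1, up to 3 DEGs with the largest change in each other list (the strongest by test where a list had none), defining markers, and the 3 genes most correlated with Setdb1 and with Trim28. Pphln1 at day 0, Zfp819 at day 0, Atf7ip and Mael at several days are given as further days of genes so named.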

Additional observations from a re-analysis of the deposited data

Results flagged for a closer look

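KO-1 day 0 replicate 1 had the highest value of the 4 KO libraries of its day for Trim28 (15.55), Ehmt1 (11.65), Cbx3 (12.03) and Cbx5 (13.62), each with a gap to the next library above Dixon's critical share of the whole range. This 1 library gave all 4 such values in 30 groups tested, and chance gives about 1 in 20 groups. Genes measured in 1 library are not independent, and its length slope was 0.134.

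By the interaction test, the KO effect on Cbx1 at day 4 was above that at day 2 by 0.58 (limma adjusted p = 0.00756; not past the threshold with a replicate block, centring or length and GC corrected, at 0.0107, 0.0131 and 0.0115) and above that at day 0 by 0.62 (limma adjusted p = 0.00433). For Ehmt2 it was above that at day 0 by 0.43 (limma adjusted p = 0.00264). Atrx was higher in KO-1 than in KO-2 at day 4 by 0.59 (limma adjusted p = 0.00172).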

How the results depend on the processing

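Of 1277 values recomputed under settings other than leaving out a library, 1173 kept their direction and side of the threshold, 41 lost the test, 37 came to pass it and 26 changed sign. Of 1566 values with 1 library left out, 1479 kept both, 72 lost the test, 7 came to pass and 8 changed sign. The causes were not tested. The replicate numbers did not pair the samples over the series (mean r of deviations −0.0541 over 36 pairs of groups), but at day 2 the 3 lines deviated together (r = 0.486, 0.536 and 0.616), which the labels do not explain. At day 0 and day 4 the signs were mixed. With a replicate block, 4, 2 and 2 members passed for KO against WT at day 0, 2 and 4, and 0 for the change of the KO effect from day 2 to day 4. With a replicate block of each day, added after seeing the data, these were again 4, 2, 2 and 0, and 1 member passed in KO from day 2 to day 4. The length and GC correction was chosen after seeing the data.

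DEGs among the members at day 0 numbered 1 with KO-1 alone, 1 with limma-voom, 2 with limma-voom on thinned counts and 4 with no minimum fold, at day 2 they numbered 2 with no minimum fold, and at day 4 they numbered 1 with KO-1 alone and 2 with no minimum fold. Members that passed at day 2 numbered 5 with the clones apart, 0 with KO-1 alone, 4 with KO-2 alone, 4 with each day alone, 5 with length and GC corrected (without a block, with 1 block or with a block of each day) and 6 at an adjusted p under 0.05. At day 4 they numbered 4 with the clones apart, 4 with KO-1 alone and 1 with each day alone. In KO from day 2 to day 4 they numbered 6 with KO-2 alone and 5 with length and GC corrected. For the KO effect, day 0 to day 2 gave 2 with KO-2 alone and 2 with length and GC corrected, day 2 to day 4 gave 2 with KO-2 alone, 0 centred and 2 with length and GC corrected, and day 0 to day 4 gave 4 with the clones apart, 5 with KO-2 alone, 4 with limma-voom, 4 with length and GC corrected and 5 at an adjusted p under 0.05. The clones at day 4 gave 0 in the fit of 4 KO libraries. Shares of all genes are given above for the main fit and for the corrected fit of KO against WT. They are not given for the other settings, nor with 1 library left out. Counts of members under those settings cannot be set against a background.

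With 1 library left out, members that passed ranged from 3 to 5, 0 to 4 and 1 to 3 for KO against WT at day 0, 2 and 4, with 0 to 0 DEGs. WT intervals gave 2 to 6 (day 0 to 2), 2 to 3 (day 2 to 4) and 4 to 5 (day 0 to 4), those of KO 4 to 7, 1 to 4 and 5 to 6, and the change of the KO effect 0 to 0, 0 to 1 and 0 to 3.

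Signs changed for Cbx5 at day 0 (0.027 with KO-1 alone, 0.013 with quantile scaling; −0.127 to 0.018 with 1 library left out, positive without WT day 0 replicate 2), for Suv39h2 at day 2 (−0.016 with quantile scaling, −0.025 with length and GC corrected), for Ehmt1 at day 2 (−0.029 with KO-1 alone, −0.059 with quantile scaling, −0.000 with limma-voom on thinned counts, −0.22 with length and GC corrected; −0.019 to 0.041 with 1 library left out, negative without WT day 2 replicate 1 or KO-2 day 2 replicate 1) and for Cbx5 at day 2 (0.037 with quantile scaling). At day 4 they changed for Suv39h1 (−0.059 with KO-1 alone; −0.043 to 0.053 with 1 library left out, negative without WT day 4 replicate 1 or either KO-2 replicate), Ehmt1 (−0.01 with KO-2 alone, −0.009 with length and GC corrected), Ehmt2 (−0.034 with KO-2 alone, −0.043 with length and GC corrected) and Cbx5 (−0.185 with KO-2 alone, −0.11 with length and GC corrected; −0.10 to 0.114 with 1 library left out, negative without WT day 4 replicate 2 or KO-1 day 4 replicate 1). None of these values had passed the test as deposited. The lowest count of a member in a library was 129, for Suv39h1.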
